A study of Homo sapiens with 3 samples.

Results

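The comparison described here set 1 RNAseq library of an EZH2i-treated tumor against 1 library of a Vehicle tumor, both xenografts of SUM-149. SUM-149 is a human triple-negative breast cancer (TNBC) cell line, a tumor type without estrogen receptor α, progesterone receptor and HER2 amplification. The cells were grown with Matrigel in the mammary fat pads of female Nu/Nu mice, which lack T cells but keep other host cells, and all tumors shared this background. The Vehicle tumor was mock treated, the EZH2i tumor received an EZH2 inhibitor for 10 days, and another tumor received the CDK2 inhibitor dinaciclib (CDK2i) for 10 days. The labels name the EZH2 inhibitor as EPZ6438, while a legend in the study names GSK343 for SUM-149 xenografts, so the identity of the drug is not certain here. Each tumor gave 1 library, so no difference below has a replicate check and none was tested.

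The deposited values are log2 FPKM, fragments scaled to transcript length and to the fragments of the library, for 29689 gene symbols. The change of a gene is its log2 FPKM in the EZH2i tumor minus that in the Vehicle tumor. A gene was taken as expressed when the mean of both values was above 1 and neither was listed at −9, the value that stands for no fragment, and 11571 of the 29689 genes were. Separately, 16212 genes were listed at −9 or below log2 FPKM 0 in the Vehicle tumor, which is below 1 FPKM, and these were the genes in which a silenced state could have been relieved. Members of the first set were counted as higher or lower when the fold was above 2 and the higher of both values was above log2 FPKM 3 (8 FPKM), a level that 7414 expressed genes reached. Members of the second set were counted as candidate de-repressed when they stood above log2 FPKM 1 (2 FPKM) in the EZH2i tumor.

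EZH2 is the catalytic subunit of Polycomb repressive complex 2 (PRC2), which methylates lysine 27 of histone H3. The trimethylated form of this mark is found at silent genes, among them the HOX genes and many transcription factors of embryonic development, and inhibitors such as EPZ6438 compete with the methyl donor of the enzyme. In breast cancer EZH2 is often abundant and has been tied to the silencing of tumor suppressors and of luminal genes. RNA levels do not report the histone mark, which was not measured in these tumors.

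The FPKM values were relative to about 16780000 fragments in the Vehicle, 19110000 in the CDK2i and 17510000 in the EZH2i tumor, as recovered from low values that stood on whole numbers of fragments. At these depths 3 fragments on a transcript of 1000 nt stand for 0.179 FPKM in the Vehicle and 0.171 in the EZH2i tumor. Fragment numbers of single genes below are estimates from annotated exon lengths, and the 95% intervals given with folds (exact Clopper-Pearson) cover counting error only, not the spread between tumors. All 13 epithelial marker genes checked were expressed in the Vehicle and EZH2i tumors, with a median change of 0.05. PGR was listed at −9 in the Vehicle tumor and at 1 fragment in the EZH2i tumor, and ESR1, the estrogen receptor α gene, stood at 0.792 (Vehicle), 1.10 (CDK2i) and 0.953 FPKM (EZH2i). Of the summed FPKM, 15.5% in Vehicle and 8.37% in EZH2i came from genes of ribosomal proteins, and 21.6% and 19.1% from mitochondrially encoded genes. The RNA came from whole tumor tissue, in which fewer cells of a type and less RNA per cell cannot be told apart, and how fragments of mouse origin were handled is not given in the sources used here.

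Over the 11571 expressed genes the median change was 0.21 (1.16-fold), with 7217 genes above 0 and 4347 below. Of the 7414 genes that could pass both thresholds, 662 (8.93%) were higher and 328 (4.42%) lower in the EZH2i tumor. Higher genes thus made up 66.9% of the genes counted. This share depended on the scaling between the libraries: it was 31.6% with each library centred on its median expressed gene, where the median change became −0.04, and 88.9% with the summed FPKM made equal, where the median became 0.45. List medians below are therefore to be read against the median of all expressed genes. Counts of higher and lower list members are to be read against the shares of 8.93% and 4.42%. The change also ran with the level, with a median of 0.37 over the 4998 genes between mean log2 FPKM 1 and 3 and of −0.43 over the 360 genes above 7. At the threshold, SRPK1 with a change of 1.001 was counted and SUPT16H, at exactly 1, was not. On the other side RPL13 with −1.007 and AGPAT2 with −1.003 were counted, and B3GALT4 with −0.998 was not.

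**Figure D1:**
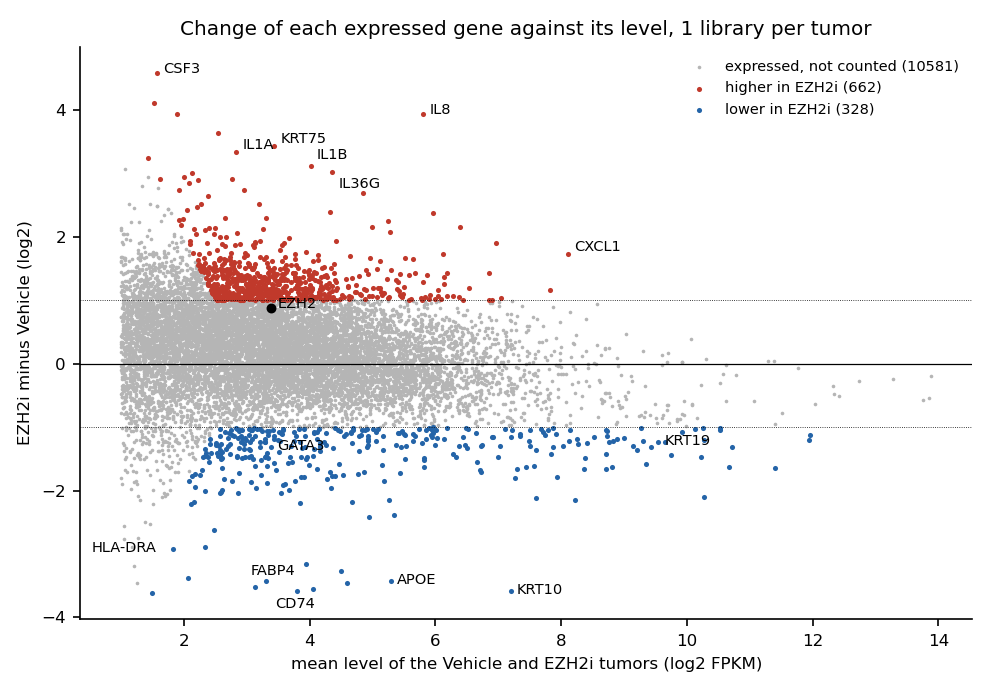
Change of each of the 11571 expressed genes (EZH2i minus Vehicle, log2) against its mean level (log2 FPKM), with 662 genes counted as higher in red and 328 as lower in blue; dotted lines mark 2-fold. CSF3 stands highest, IL8 is the highest of the abundant genes, KRT10 is the most abundant of the deep falls, and EZH2 itself, drawn in black at 0.88, lies just under the upper line.

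The change in the EZH2i tumor was ordered by the base composition and the length of the transcripts. Over 10598 expressed genes with an annotated transcript, the change had a Spearman correlation of −0.575 with GC content and of 0.491 with length. The same values were 0.044 and 0.101 for the CDK2i tumor, which shares the Vehicle library. These are descriptions across genes, which are not independent replicates and share their libraries. Ribosomal protein genes were left out of the deciles that follow. In the lowest decile of GC content (29.5 to 38.6%) the median change was 0.74 and 167 genes were counted as higher against 4 as lower. In the highest decile (62.4 to 82.0%) the median was −0.37, with 8 genes higher and 71 lower. By length, the shortest decile had a median of −0.33 and the longest decile, from 7149 nt, of 0.72. The 622 higher genes with a transcript had a median GC content of 41.3% and a median length of 5211 nt, the 293 lower ones 57.4% and 1576 nt, and the 7124 genes that could pass 51.1% and 2869 nt. A smooth trend over both properties took up 38.3% of the variance of the change in the EZH2i tumor and 2.25% of that in the CDK2i tumor.

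**Figure D2:**
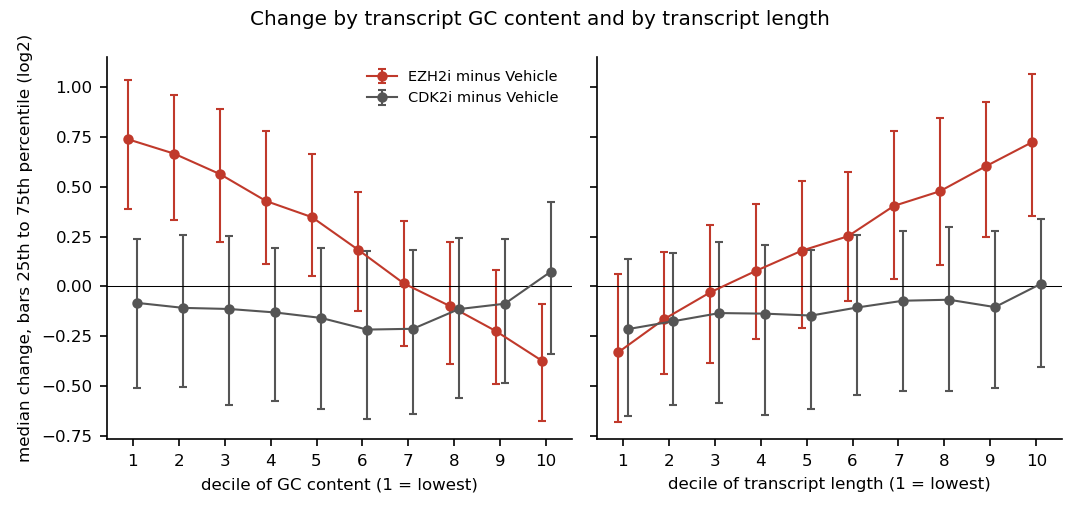
Median change (log2, points) with the 25th to 75th percentile (bars) in deciles of the expressed genes without ribosomal protein genes, ordered by transcript GC content (left) and transcript length (right), for the EZH2i tumor in red and the CDK2i tumor in grey, both against the Vehicle tumor. The red medians fall from 0.74 to −0.37 with GC content and climb from −0.33 to 0.72 with length, while the grey medians stay between −0.22 and 0.07.

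The median GC content of the promoters did not part the counted genes in the same way. Promoter sequences (RefSeq, GRCh38.p14, 250 bases before to 50 after the start of the gene) were matched for 517 of the 612 higher and 205 of the 268 lower protein-coding genes. Their median GC content was 65.3% for higher and 63.7% for lower genes, against 66.0% over 5762 promoters of genes that could pass. The median ratio of observed to expected CpG was 0.868 and 0.769, against 0.862. Its 25th percentile was 0.726 for higher and 0.349 for lower genes, against 0.732, so the lower genes held a larger part with promoters poor in CpG. With the trend over transcript GC content and length subtracted, 284 of 7124 genes were higher (3.99%) and 135 lower (1.9%), and of the 622 and 293 called before, 198 (31.8%) and 117 (39.9%) were called again in the same direction. After this subtraction the median over all expressed genes was 0.24, and list medians after it are given below. Whether the trend reflects the library or the tumor was not tested, and with 1 library per tumor these cannot be told apart.

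The target of the drug was not lower at the RNA level. EZH2 (chr7:148504349-148581413, GRCh37) stood at 7.69 (Vehicle), 4.99 (CDK2i) and 14.2 FPKM (EZH2i), from about 1390 and 2674 fragments in the Vehicle and EZH2i tumors. The EZH2i value was the highest of the 3 tumors, 1.84-fold above Vehicle (95% interval 1.73 to 1.97), under the 2-fold threshold. This interval rests on the length of all annotated EZH2 exons, and it is too narrow if the transcript of 2654 nt is the one expressed. SUZ12, the zinc finger subunit that PRC2 needs for its stability, went from 5.08 to 9.63 FPKM, with 4.91 in CDK2i. EED, the subunit that binds the methylated histone, went from 7.52 to 11.3 FPKM, with 4.74 in CDK2i. EZH1, the paralog that serves mainly in resting cells, stood at 8.46 (Vehicle), 5.46 (CDK2i) and 7.63 FPKM (EZH2i). None of the 11 subunits and cofactors was counted in either direction, while 9 of them were above 0 (PHF19 was below 0 with the libraries centred), and their median change of 0.73 became 0.31 with the trend subtracted. The median for CDK2i was −0.13. Among 22 genes of PRC1, the complex that reads the mark, and of the demethylases that remove it, only BMI1 was counted, at 6.29, 6.75 and 12.9 FPKM in Vehicle, CDK2i and EZH2i, and with the trend subtracted, at 0.66, it was not. The demethylase KDM6B stood at 14.5 FPKM in Vehicle and 20.2 in EZH2i, and KDM6A at 1.87 and 2.89. The median change of these 22 genes was 0.23, near that of all expressed genes, or 0.15 with the trend subtracted and −0.02 with the libraries centred.

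Of the 16212 genes low in the Vehicle tumor, 247 (1.52%) stood above 2 FPKM in the EZH2i tumor. Only 15 of them came from −9, and 127 were protein coding. In the other direction 120 of 15655 genes low in the EZH2i tumor (0.767%) were above 2 FPKM in Vehicle, 5 of them at −9 in EZH2i. With the libraries centred the balance turned, to 147 de-repressed and 176 lost genes. In the CDK2i tumor the same rules gave 122 and 358 genes. Exchange at the limit of detection went both ways, since 2585 genes at −9 in Vehicle were listed in EZH2i, at a median of about 2 fragments, and 2414 genes did the reverse. The 127 protein-coding candidates had a median of 85.7 fragments in Vehicle and 316 in EZH2i. Just inside the threshold stood SLC16A9, at 0.785 FPKM in Vehicle and 2.01 in EZH2i, and just outside SP8, at 0.452 and 1.997.

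The candidates followed the same composition as the expressed genes. Their median transcript GC content was 40.7%, against 48.99% over all 5714 protein-coding genes low in Vehicle, and their median length 5197 nt against 3071 nt. In the lowest tertile of GC content 82 of 1905 low protein-coding genes were candidates (4.30%), in the middle tertile 25 of 1904 (1.31%) and in the highest tertile 20 of 1905 (1.05%). The promoters of 102 matched candidates had a median observed to expected CpG of 0.732, against 0.563 over 4302 promoters of low genes, with quartiles of 0.371 to 0.921 and 0.239 to 0.816 that overlap widely. Of the candidates, 17 protein-coding genes were also above 2 FPKM in the CDK2i tumor and 68 stayed below 1 FPKM there.

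The HOX genes, which set position along the body axis and are classical targets of PRC2, gave no candidate. The share over all low genes was 1.52%, so a list of this size cannot be told apart from other low genes by this count. Of 33 HOX genes measured, 21 were low in Vehicle, all 21 stayed low in EZH2i, and together they held about 195 fragments in Vehicle, 154 in EZH2i and 100.2 in CDK2i. HOXD13 was listed at −9 in EZH2i against about 18 fragments in Vehicle. The other 12 HOX genes were not low in Vehicle. HOXC10, the highest, stood at 15.6 (Vehicle), 11.6 (CDK2i) and 15.5 FPKM (EZH2i), and HOXC8 at 1.61, 1.12 and 3.20. Over the 8 expressed HOX genes the median change was −0.03, but it lay above 0 with the summed FPKM made equal and with the trend subtracted.

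A list of 164 other transcription factors of development, of which 126 were measured, gave 1 candidate among the 84 low in Vehicle. This was TBX20 (chr7:35242042-35293711, GRCh37), a T-box factor of the heart, at 0.955 (Vehicle), 2.01 (CDK2i) and 4.21 FPKM (EZH2i), from about 29, 70 and 135 fragments. Its fold of 4.41 had a 95% interval of 2.97 to 6.91. The share of candidates in this list, 1 of 84, was no larger than the 1.52% over all low genes. Among the 84 genes 27 had more fragments relative to depth in EZH2i than in Vehicle and 40 had fewer, and 18 went from listed to −9 while 5 did the reverse. SOX11, a factor of neural progenitors, went from about 22 fragments to 1, and NEUROG2, which drives neuron formation, from 11 to 1. Their summed fragments were 1112 in Vehicle, 755 in CDK2i and 1560 in EZH2i, with the largest gains in TBX20 and in PAX9, from 64 to 141 fragments. Among the 14 members that could pass the thresholds none was higher and 3 were lower, VAX2, DLX5 and IRX3. The shares over all genes that could pass were 8.93% higher and 4.42% lower. IRX3, the most abundant of the 3 lower members, stood at 53.2 (Vehicle), 15.2 (CDK2i) and 24.1 FPKM (EZH2i), so the EZH2i tumor lay between the other tumors. With the trend subtracted 1 member was higher and 1 lower.

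**Figure D3:**
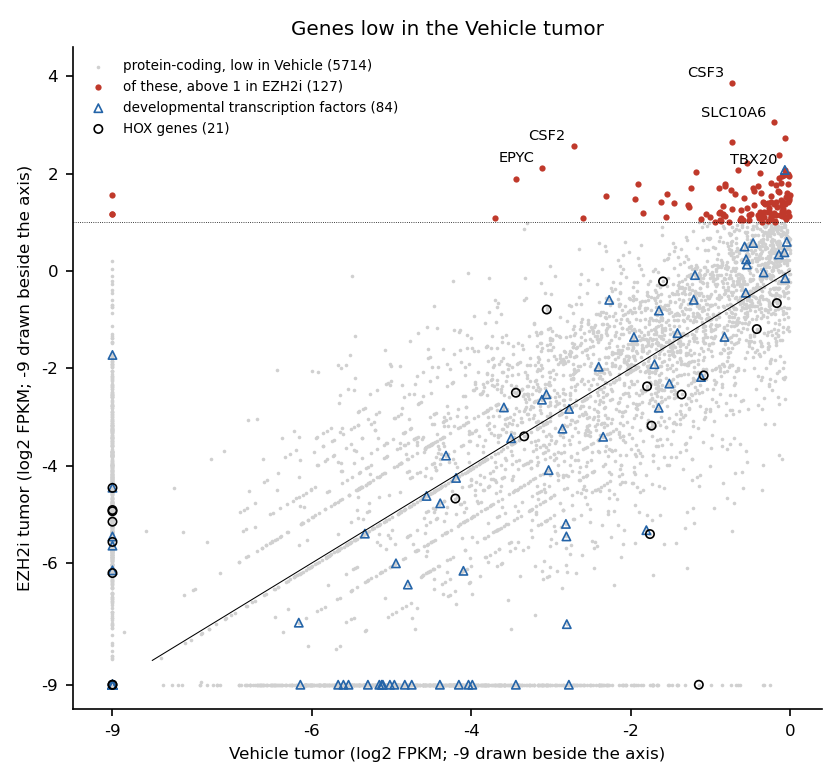
Level in the EZH2i tumor against level in the Vehicle tumor (log2 FPKM) for 5714 protein-coding genes low in Vehicle, with genes listed at −9 drawn beside the axes; red points are the 127 candidates above the dotted line at 1, triangles 84 developmental transcription factors and circles 21 HOX genes. The diagonal marks equal values; TBX20 is the single triangle above the dotted line, and no circle reaches it.

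Genes described elsewhere as repressed by EZH2 in cancer went in both directions. Of 29 measured, 13 could pass, and 2 were higher and 4 lower, against 8.93% and 4.42% over all genes. SFRP1, a secreted inhibitor of WNT signaling, stood at 35.8 (Vehicle), 92.9 (CDK2i) and 87.5 FPKM (EZH2i), so it was high in both treated tumors. DKK1, another WNT inhibitor, stood at 4.03, 1.34 and 9.06 FPKM. The lower members were TXNIP, RARRES1, GATA3 and FOXC1. TXNIP, which curbs glucose uptake, stood at 13.7 (Vehicle), 11.2 (CDK2i) and 4.93 FPKM (EZH2i). RARRES1, a retinoid-responsive gene, stood at 44.4, 64.4 and 17.0 FPKM. SLIT2, an axon guidance ligand silenced in many tumors, was under the level minimum, at 1.80, 2.92 and 5.77 FPKM. None of the 11 members low in Vehicle became a candidate, but at a share of 1.52% over all low genes so few members cannot show a difference. CDKN2A, the p16 gene and a well-known PRC2 target, stood at 18 fragments in Vehicle and 3 in EZH2i. The median change of 16 expressed members was −0.11, and 0.09 with the trend subtracted.

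Among 18 imprinted genes, which are expressed from 1 parental allele, PEG10 and PHLDA2 were higher out of 5 that could pass, and MEST was a candidate. Both were also counted with the trend subtracted, and the median of 7 expressed members was 0.43, or 0.46 with the trend subtracted. PEG10, derived from a retrotransposon, stood at 11.5 (Vehicle), 16.9 (CDK2i) and 27.9 FPKM (EZH2i). MEST stood at 0.459, 0.148 and 2.08 FPKM, and the EZH2i value was 4.54-fold above Vehicle (95% interval 3.15 to 6.61). IGF2, DLK1 and MEG3 were listed at −9 in EZH2i, against 8, 12 and 14 fragments in Vehicle. All 13 cancer-testis genes measured were low in both tumors, with about 32 fragments in Vehicle and 21 in EZH2i in all.

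By level in the EZH2i tumor the leading protein-coding candidates were CSF3, SLC10A6, CNTN1, SH2D2A, CSF2, KANK1, LRRC8C, EPYC, TBX20 and DGKH. CSF3, which encodes granulocyte colony-stimulating factor, and CSF2 are described with the cytokines. SLC10A6, a transporter of sulfated steroids, stood at 0.872 (Vehicle), 2.09 (CDK2i) and 8.28 FPKM (EZH2i). CNTN1, a cell adhesion molecule of neurons, stood at 0.954, 3.42 and 6.64 FPKM. SH2D2A, an adaptor of T cell signaling, stood at 0.605, 1.81 and 6.28 FPKM. In these 3 genes the CDK2i tumor lay between the others. EPYC (chr12:91357459-91398803, GRCh37), a small proteoglycan of cartilage, differed in this, with 0.116 (Vehicle), 0.0339 (CDK2i) and 4.34 FPKM (EZH2i). Its counts were about 4, 1 and 137 fragments, a fold of 37.3 with a 95% interval of 12.5 to 122. Among the candidates named here KANK1, a regulator of actin at adhesion sites, had the most estimated fragments. They were 383 in Vehicle and 2287 in EZH2i, at 0.911 and 5.21 FPKM. The rank depends on the length used, since the annotated transcript of KANK1 has 5070 nt and that of DGKH 17497 nt.

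The leading genes lost in the EZH2i tumor were FAM84A, ARHGAP36, NDUFA4L2, CKB and AL606500.1, the last an annotated transcript of 21 nt whose value rests on 2 fragments. FAM84A stood at 9.91 (Vehicle), 4.08 (CDK2i) and 0.808 FPKM (EZH2i), a 12.3-fold lower level (95% interval 10.2 to 15.0). ARHGAP36 (chrX:130192320-130223859, GRCh37), which activates hedgehog signaling, went from about 373 fragments in Vehicle and 13 in CDK2i to none in EZH2i. Against a floor of 3 fragments in the EZH2i library this is at least 130-fold lower. NDUFA4L2, a mitochondrial protein induced by low oxygen, stood at 6.95 (Vehicle), 19.4 (CDK2i) and 0.761 FPKM (EZH2i), so the treated tumors lay on opposite sides of Vehicle. CKB, the brain-type creatine kinase, stood at 6.28, 6.82 and 0.935 FPKM, and only the EZH2i tumor was low.

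Cytokines of the interleukin-1 family, chemokines that draw neutrophils and colony-stimulating factors were among the genes furthest above Vehicle. Cells of skin and breast epithelium make these signals in response to damage or infection, in part through the transcription factor NF-κB. Of the 12 largest rises among protein-coding genes, 5 were such signals (CSF3, IL8, IL1A, IL1B and IL36G). CSF3 (chr17:38171614-38174066, GRCh37) led them, with 0.605 (Vehicle), 3.09 (CDK2i) and 14.5 FPKM (EZH2i), from about 23, 131 and 565 fragments. The fold was 24 (95% interval 15.5 to 37.4), and the change of 4.58 became 5.18 with the trend subtracted. CSF2, granulocyte-macrophage colony-stimulating factor, stood at 0.152 (Vehicle), 3.60 (CDK2i) and 5.91 FPKM (EZH2i). Its Vehicle value rests on 2 fragments, and the fold of 38.8 has an interval of 10.4 to 326.

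IL1A, IL1B and IL36G lie in the interleukin-1 gene cluster on chromosome 2, within 113531502 to 113743235 (GRCh37). IL1A stood at 2.24 (Vehicle), 4.23 (CDK2i) and 22.8 FPKM (EZH2i) (10.1-fold, 95% interval 8.01 to 13.0). IL1B stood at 5.48, 10.1 and 47.8 FPKM (8.73-fold, 7.70 to 9.91). IL36G, an alarmin of keratinocytes, stood at 7.23, 23.6 and 58.6 FPKM (8.11-fold, 6.88 to 9.55). All 3 were highest in the EZH2i tumor, with CDK2i between. The antagonists were higher as well, but by less. IL1RN, which blocks the IL-1 receptor, stood at 17.1, 40.6 and 35.8 FPKM, and IL1R2, a decoy receptor, at 3.96, 23.5 and 11.1 FPKM, so both were highest in the CDK2i tumor. The coreceptor IL1RAP stood at 7.38, 12.8 and 18.4 FPKM. Not every member followed: IL18 stood at 51.6, 25.1 and 57.6 FPKM and IL33 at 10.8, 9.95 and 8.80. Of 9 members that could pass 6 were higher and none lower, against 8.93% and 4.42% over all genes, and the median of 11 expressed members was 1.06, or 0.92 with the trend subtracted.

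Of 7 chemokine genes that could pass 6 were higher and none lower, against 8.93% and 4.42% over all genes. IL8, the main attractant of neutrophils, stood at 14.2 (Vehicle), 23.3 (CDK2i) and 219 FPKM (EZH2i), from about 618, 1151 and 9905 fragments. The fold of 15.4 had a 95% interval of 14.2 to 16.7. CXCL1, of the same receptor group, stood at 152, 123 and 503 FPKM, CXCL2 at 6.21, 24.6 and 23.4, and CXCL3 at 11.3, 22.9 and 73.0. IL8, CXCL1 and CXCL3 were highest in EZH2i, while CXCL2 was about as high in the CDK2i tumor. CCL20, which draws dendritic and lymphoid cells, stood at 12.1, 65.7 and 36.1 FPKM, and CXCL14 at 12.2, 79.5 and 25.9, both highest in CDK2i. The median change of the 8 expressed chemokine genes was 1.71, or 1.96 with the trend subtracted. Over all members not at −9 in either tumor, most of them weak, the median was −0.60. CX3CL1 stood at 103 fragments in Vehicle and 24 in EZH2i, and CCL5 at 25 and 17.

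**Figure D4:**
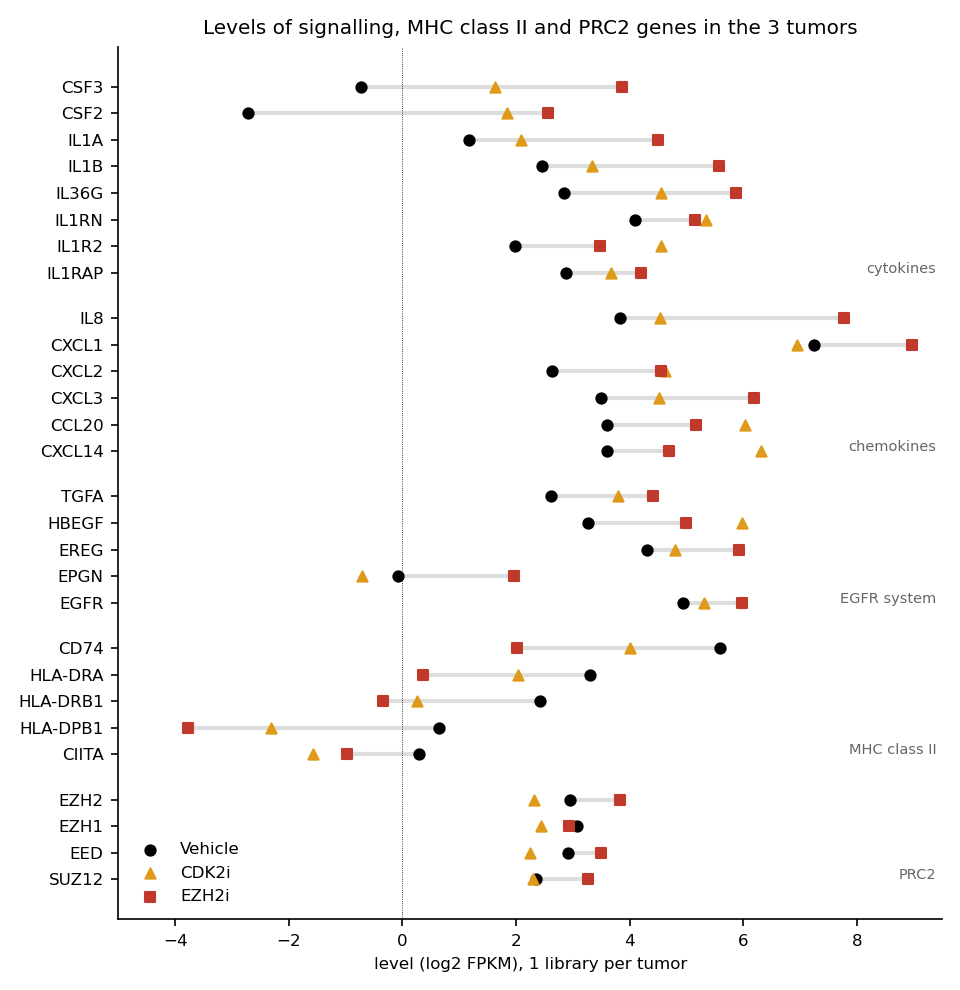
Level (log2 FPKM) of 28 genes in the Vehicle (black circles), CDK2i (orange triangles) and EZH2i tumors (red squares), 1 library each; grey bars join Vehicle and EZH2i. Cytokine, chemokine and EGFR genes stand to the right of Vehicle in EZH2i, MHC class II genes to the left, and the PRC2 genes move by less than 1 unit.

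The promoters of the chemokine cluster on chromosome 4 share the same letters of an NF-κB motif, shown here because the letters stand at nearly the same distance from the start of 4 genes that were all counted as higher. IL1A, IL1B and IL36G, whose changes were larger than those of CXCL1, CXCL2 and CXCL3, hold no match. The NF-κB motif searched was GGAATTTCC, read on both strands (GGAAATTCC on the other). An AP-1 motif (TGANTCA) and a TATA motif (TATAAA or, on the other strand, TTTATA) were searched as well. The promoter of CSF3 was not matched. In the stretches below, all from RefSeq on GRCh38.p14, the motif is in capitals with 40 bases on either side, and it begins 91 bases before the start of IL8, 78 before those of CXCL1 and CXCL3, and 77 before that of CXCL2. They lie at chr4:73740438-73740526 on the plus strand (IL8, listed in RefSeq as CXCL8), chr4:73869275-73869363 on the plus strand (CXCL1), chr4:74099224-74099312 on the minus strand (CXCL2) and chr4:74038719-74038807 on the minus strand (CXCL3).
IL8: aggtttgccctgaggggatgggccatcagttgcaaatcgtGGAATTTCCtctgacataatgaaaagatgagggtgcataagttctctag
CXCL1: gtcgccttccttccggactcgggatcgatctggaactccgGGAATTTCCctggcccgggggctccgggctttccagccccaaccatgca
CXCL2: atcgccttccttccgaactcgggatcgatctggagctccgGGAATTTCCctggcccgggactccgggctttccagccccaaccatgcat
CXCL3: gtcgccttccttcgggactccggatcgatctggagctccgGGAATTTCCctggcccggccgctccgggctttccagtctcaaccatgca

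The motif stood in 129 of 27305 promoters in RefSeq (0.472%), in 22 of 5762 of the protein-coding genes that could pass (0.382%), in 8 of 517 promoters of higher genes (1.55%) and in none of 205 of lower genes. The 8 genes were CXCL1, CXCL2, CXCL3, IL8, ICAM1, NFKBIZ, MAPK6 and RC3H2. The 4 genes displayed above are among these 8 and were chosen after their values were seen, so the count is not independent evidence. The stretches of CXCL1, CXCL2 and CXCL3 are nearly alike and are not separate matches. At a share of 0.382% the 205 promoters of lower genes are too few to show a difference. Of the 12 higher genes in the chemokine and IL-1 lists 4 held the NF-κB motif, and so did 4 of 20 matched members that were not counted. The AP-1 motif stood in 4 of the same 12 promoters and in 4 of the 20. It stood in 27 of 517 promoters of higher genes (5.22%) and in 13 of 205 of lower genes (6.34%). Among genes that could pass it stood in 252 of 5762 (4.37%), and in 7.76% of all RefSeq promoters. The TATA motif stood in 3 of the 12 and 3 of the 20, in 6.19% of higher genes and in 11.2% of lower genes. Its share was 5.10% in genes that could pass and 11.95% in all RefSeq promoters. A match is a description of letters, and no binding was measured. TNFAIP3, the A20 enzyme that restrains NF-κB, stood at 4.61 (Vehicle), 15.6 (CDK2i) and 20.1 FPKM (EZH2i). NFKBIZ, another gene of the NF-κB pathway, stood at 12.1, 23.7 and 34.2 FPKM. SOCS1, which damps cytokine receptors, stood at 1.12, 1.92 and 8.39 FPKM. Among 25 immediate early and stress genes that could pass, 5 were higher and 1 lower, against 8.93% and 4.42% over all genes. The median over 28 expressed members was 0.15, and became −0.11 with the libraries centred and 0.23 with the trend subtracted. The lower one was EGR1, at 72.4 (Vehicle), 439.6 (CDK2i) and 29.6 FPKM (EZH2i).

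The epidermal growth factor receptor (EGFR) and its ligands, a growth signal of basal-like breast cancer, were higher in 4 of 7 genes that could pass. None was lower, and the share of higher genes over all that could pass was 8.93%. TGFA, a ligand, stood at 6.16 (Vehicle), 13.9 (CDK2i) and 21.4 FPKM (EZH2i), and EREG, another, at 19.7, 27.7 and 60.7. HBEGF was highest in CDK2i, at 9.66, 63.0 and 31.8 FPKM. EPGN, low in Vehicle, was a candidate at 0.947, 0.612 and 3.91 FPKM. EGFR itself stood at 30.6, 39.7 and 63.5 FPKM, a fold of 2.07 (95% interval 2.02 to 2.13), and its change of 1.05 became 0.64 with the trend subtracted, after which 3 members were counted. The list median was 0.38, or 0.51 with the trend subtracted. ERBB2, the HER2 gene, stood at 30.4, 30.2 and 21.9 FPKM.

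Integrins and laminins, through which epithelial cells hold to the basement membrane, were higher in 8 of 16 genes and lower in none. The shares over all genes that could pass were 8.93% and 4.42%. LAMA3 and ITGA6, parts of the laminin-332 and integrin α6 anchor, were both higher. LAMA3 stood at 15.0 (Vehicle), 35.9 (CDK2i) and 66.9 FPKM (EZH2i), and ITGA6 at 38.1, 94.9 and 126. In each the CDK2i tumor lay between the others. The list median was 0.94, or 0.77 with the trend subtracted, after which 5 were still counted. Of 20 proteases and protease regulators of invasion 8 were higher and none lower, against the same shares. ADAM19 stood at 2.48, 10.1 and 18.7 FPKM, PLAU, the urokinase, at 19, 45.0 and 80.1, and MMP1, the interstitial collagenase, at 1.78, 5.01 and 9.56. MMP9 was highest in the CDK2i tumor, at 20.04, 102 and 56.4 FPKM. Their median was 0.55, or 0.67 with the trend subtracted.

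Genes of mitosis were higher in the EZH2i tumor. Of 37 that could pass 21 were counted as higher and none as lower, against 8.93% and 4.42% over all genes. Among 41 expressed members 40 were above 0, and the median was 1.10, against −0.40 in the CDK2i tumor. These genes are poor in GC, with a median of 41.9%, and of usual length, with a median of 2966 nt against 2869 nt over genes that could pass. With the trend subtracted 9 were counted as higher and the median was 0.87. KIF14, a motor of cytokinesis, stood at 2.15 (Vehicle), 2.36 (CDK2i) and 9.38 FPKM (EZH2i). ASPM, a spindle-pole protein, stood at 4.49, 3.58 and 17.0 FPKM. MKI67, the Ki-67 antigen of cycling cells, stood at 8.35, 6.01 and 23.8 FPKM, a fold of 2.85 (95% interval 2.70 to 3.01), and CDK1, the mitotic kinase, at 19.1, 15.7 and 40.7. In ASPM, MKI67 and CDK1 the treated tumors lay on opposite sides of Vehicle. Among 31 replication genes 3 were higher and none lower, a share of higher genes near the 8.93% over all genes that could pass. RRM2, a subunit of ribonucleotide reductase, stood at 26.3, 25.5 and 65.8 FPKM. RFC3 and ORC6 stood at 22.6 and 24.7 FPKM in EZH2i against 9.25 and 10.9 in Vehicle. The median of 37 expressed members was 0.61, or 0.54 with the trend subtracted, and −0.47 in CDK2i. Of 9 CDK inhibitors, D cyclins and their partners CDK6 and RB1 were higher. CDK6, the kinase that D cyclins activate, stood at 2.84, 4.62 and 13.9 FPKM, and CDKN1A, the p21 inhibitor, at 71.7, 109 and 87.4. Of the 9, 1 was higher with the trend subtracted, and the median of 0.21 became 0.40, or −0.04 with the libraries centred.

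**Figure D5:**
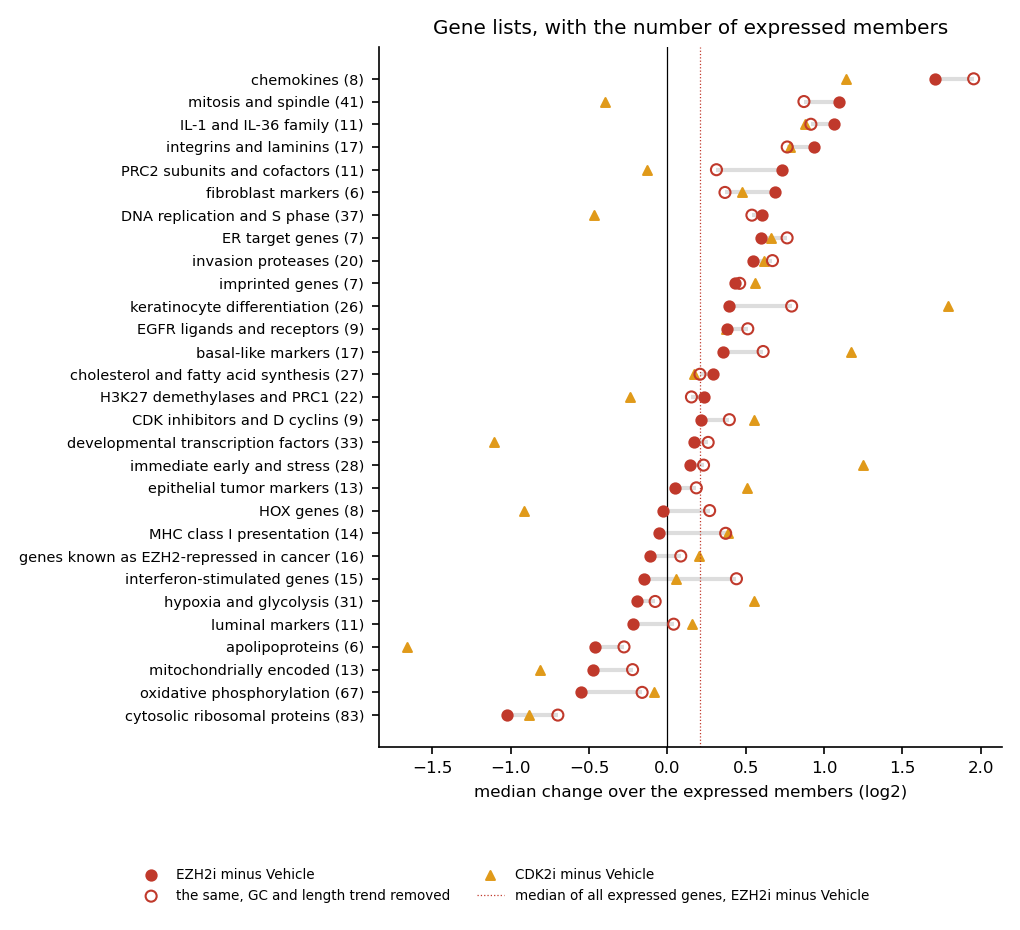
Median change (log2) over the expressed members of the 29 gene lists with at least 6 of them, their number in brackets, shown as filled red circles for EZH2i minus Vehicle, open circles for the same with the trend over GC content and length subtracted, orange triangles for CDK2i minus Vehicle, and a dotted line at the median of all expressed genes, 0.21. Chemokines stand highest at 1.71 and ribosomal proteins lowest at −1.02 (the MHC class II list, with 3 members, is not drawn); the subtraction moves PRC2 from 0.73 to 0.31 and oxidative phosphorylation from −0.55 to −0.16.

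Luminal genes, which mark the hormone-responsive lineage of the breast, were not higher. Of 10 that could pass 4 were lower and none higher, against 4.42% and 8.93% over all genes. GATA3, a master factor of luminal cells, stood at 16.5 (Vehicle), 3.75 (CDK2i) and 6.66 FPKM (EZH2i), 2.48-fold below Vehicle in EZH2i (95% interval 2.20 to 2.80). ELF3, an epithelial ETS factor, stood at 13.0, 43.0 and 3.60 FPKM, so the treated tumors parted. KRT19 and CLDN4 were no longer past the threshold with the trend subtracted, with changes of −0.55 and −0.43. The change of ESR1 was 0.27, a fold of 1.20 with an interval of 0.988 to 1.47, which includes no difference. FOXA1 stood at 42 fragments in Vehicle and 55 in EZH2i. The median of 11 expressed members was −0.22, but 0.04 with the trend subtracted and 0.02 with the summed FPKM made equal. Of 17 basal-like markers 6 were higher and 1 lower, against 8.93% and 4.42% over all genes. The higher ones include TP63, a factor of basal cells, at 17.8, 21.4 and 39.0 FPKM, and CAV1, the caveolin, at 43.6, 66.5 and 113. FOXC1 was the lower one, at 51.0, 63.9 and 21.8 FPKM. The median was 0.36, or 0.61 with the trend subtracted. Of 7 estrogen receptor target genes that could pass 3 were higher and 1 lower, against the same shares over all genes. The lower one was CTSD, a lysosomal protease, and the 3 higher ones are SPRR2D, SPRR2G and LCE3D, which the study singled out from these libraries, so their count is not independent evidence. The same counts were 3 and 0 with the trend subtracted, and the list median went from 0.59 to 0.76.

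Keratinocyte differentiation genes split. Of 21 that could pass 8 were higher and 5 lower, against 8.93% and 4.42% over all genes. With the trend subtracted 8 were higher and 4 lower. The median of 26 expressed members was 0.40, or 0.79 with the trend subtracted. The lower ones were the keratins of the layer above the basal cells and their companions. KRT10 (chr17:38974369-38978866, GRCh37), the partner of KRT1 in keratin filaments, stood at 507 (Vehicle), 509.5 (CDK2i) and 42.5 FPKM (EZH2i), 11.9-fold lower (95% interval 11.3 to 12.6). KRT1 stood at 452, 842 and 131 FPKM. SPINK5, a protease inhibitor of the outer skin, stood at 187, 148 and 58.4 FPKM, and KRTDAP and CALML5 were also lower. In KRT10 only the EZH2i tumor was low. The higher ones were cornified envelope and desmosome genes. CRCT1 stood at 1.53, 19.7 and 12.4 FPKM, LCE3D at 1.46, 14.6 and 9.77, and the desmosomal cadherin DSC1 at 2.69, 13.0 and 11.9. All 3 were higher in CDK2i than in EZH2i. LCE3A was at −9 in Vehicle and at about 14 fragments in EZH2i. Fragments of near-identical SPRR2, LCE and keratin genes could be split differently by the counting, which makes single members uncertain. Further large falls with a level near Vehicle in CDK2i were KRT77, at 29.6, 40.3 and 2.59 FPKM, and GJB6, a gap junction protein of epidermis, at 80.4, 87.5 and 7.29.

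Genes of antigen presentation through MHC class II had the lowest median of all lists. CD74 (chr5:149781200-149792532, GRCh37), the invariant chain, stood at 48.2 (Vehicle), 16.1 (CDK2i) and 4.03 FPKM (EZH2i), from about 3661, 1390 and 319 fragments. HLA-DRA stood at 9.82, 4.08 and 1.29 FPKM, and HLA-DRB1 at 5.38, 1.19 and 0.789. HLA-DPB1 went from about 137 fragments in Vehicle to 20 in CDK2i and 7 in EZH2i. The EZH2i tumor was lowest in all 4. CIITA, the transactivator that switches this group on, stood at 463, 146 and 201 fragments. Both members that could pass were lower, and the median of 3 expressed members was −2.93, or −2.69 with the trend subtracted. Of 9 MHC class I genes that could pass none was counted, and the median of −0.05 lay above 0 with equal summed FPKM (0.19) and with the trend subtracted (0.37). B2M, their light chain, stood at 56.8, 73.4 and 54.9 FPKM. Among 10 interferon-stimulated genes that could pass only IFITM1 was counted, at 9.34, 6.05 and 3.87 FPKM. With the trend subtracted IFITM1, at −0.62, was not counted, while 1 other member was counted as higher. The list median of −0.15 then became 0.44.

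Of 3 apolipoprotein genes that could pass, APOE and APOC1 were lower, and of the adipocyte markers FABP4 was the single one that could pass and was lower. APOE, a carrier of cholesterol that macrophages and other cells secrete, stood at 128 (Vehicle), 23.2 (CDK2i) and 11.9 FPKM (EZH2i), and its neighbor APOC1 at 49.6, 3.87 and 14.9, lowest in CDK2i. APOC1 was no longer counted with the trend subtracted, at −0.98. The median of 6 expressed apolipoprotein genes was −0.46, or −0.28 with the trend subtracted, APOL6 was a candidate at 0.913 FPKM in Vehicle and 2.21 in EZH2i, and APOD was among the genes lost. FABP4, a fatty acid carrier of adipocytes and macrophages, stood at 32.6, 18.6 and 3.03 FPKM. LPL, a lipase of fat tissue, stood at 1.72, 0.829 and 3.53 FPKM, and the median of 3 expressed adipocyte markers was −0.60, or 0.24 with the trend subtracted. Markers of cells other than the tumor were read beside these values. Of 10 macrophage markers 8 were low in both tumors, CD163 was at −9 in both, PTPRC, CD68 and AIF1 stood at 6, 1 and 3 fragments in Vehicle and at none in EZH2i, and the list summed to 12.4 (Vehicle), 11.97 (CDK2i) and 5.69 FPKM (EZH2i). FCGR3A went from 66 fragments to none, and CD14 from 8.02 to 3.15 FPKM. Of 7 adipocyte markers 4 were low in both tumors, ADIPOQ was at −9 in both, and the sum was 39.1 FPKM in Vehicle and 9.96 in EZH2i, of which FABP4 made up 32.6 and 3.03. Of 10 endothelial markers 9 were low in both, with a sum of 12.2 and 12.9 FPKM. Of 14 fibroblast markers 5 were low in both, THY1 was at −9 in all tumors, and the sum was 40.3 and 53.1 FPKM, with COL6A3 at 1.80 FPKM in Vehicle and 8.74 in EZH2i, FAP at 0.557 and 2.26, and COL3A1 at 3.88 and 0.927. The part of such cells, human or mouse, in the MHC class II, APOE and FABP4 values was not tested.

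Ribosomal protein genes were the group with the most members below Vehicle. Of 79 that could pass 46 were lower and none higher. Over all genes that could pass 4.42% were lower and 8.93% higher, and these shares also stand beside the lists that follow. Of 83 expressed members 78 were below 0, and the median was −1.02, against −0.88 in CDK2i. With the trend subtracted it was −0.70 and 22 were lower. RPS29 stood at 631 (Vehicle), 159 (CDK2i) and 143 FPKM (EZH2i), so Vehicle was the high tumor of the 3. Of 61 genes of oxidative phosphorylation only 4 were lower, a share near that over all genes. The list median was −0.55 and became −0.16 with the trend subtracted. NDUFA4, of the respiratory chain, stood at 66.1, 52.7 and 30.8 FPKM. The 13 mitochondrially encoded genes were all below 0, with a median of −0.48, and only MT-ND3 was counted. Their median was −0.22 with the trend subtracted, and none was counted, with MT-ND3 at −0.99. Of 30 genes of the hypoxia response and glycolysis only ENO2, a neuronal enolase, was counted, at 92.2, 109 and 41.3 FPKM, and the list median of −0.20 became 0.05 with equal summed FPKM and −0.08 with the trend subtracted, after which EGLN3 was lower and ENO2 was not. Of 24 genes of cholesterol and fatty acid synthesis 1 was higher and 2 were lower. TM7SF2, an enzyme of the late cholesterol steps, was lower, at 9.65, 12.2 and 4.69 FPKM, but not with the trend subtracted, at −0.37. The list median of 0.29 became 0.21 with the trend subtracted, after which 2 were higher and 1 lower. Of 3 metallothioneins that could pass, which bind zinc and copper, MT1F was lower, at 13.0, 11.4 and 5.88 FPKM, but not with the trend subtracted, at −0.57, and the median of 4 expressed members went from −0.81 to −0.25.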

How the data were processed

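RNAseq values of 3 SUM-149 xenograft tumors (1 library per tumor) were used as deposited: log2 FPKM per gene symbol, in which the authors set genes with no fragment to −9. The submitters' processing notes name CASAVA, STAR and hg19; the versions and the gene annotation are not given in the sources used here. Samples were grouped by their labels. The members and gene lists were chosen with earlier results of these data known, and nothing was tested, since there are no replicates. Changes are plain differences of the deposited log2 values, with no pseudocount. Symbols were matched to GENCODE 44 on GRCh37, directly or through RefSeq synonyms (713 expressed genes by an older symbol), which gave transcript GC content and length for 91.6% of expressed genes. A cubic trend in GC content and log length was fitted by least squares over expressed genes without ribosomal protein genes and subtracted. The recovered depth is the total at which most low genes stand on 1 to 8 whole fragments within 0.2%; 12.9 to 14.2% of them did, so fragment numbers are approximate. Named were the 12 largest rises and falls and 10 candidate de-repressed and 5 lost genes that code for protein, PRC2 genes, ESR1, GATA3, IL36G and, per list, up to 4 counted and 2 other members; other members named in the text, and the promoter display, were chosen after their values were seen. The counting rule, depth recovery and trend were also run on simulated data, made with the same exon lengths and a trend in the same properties. Such runs check the code only, and cannot check the depths, lengths or fragment numbers of these libraries. Alternatives changed the scaling, pseudocount (1 and 0.1 FPKM), fold, level minimum and low and detected limits. Python 3.11.15, numpy 2.4.6, pandas 2.3.3, scipy 1.17.1 and matplotlib 3.10.9 were used. Some genes and 1 sequence are not reported here.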

Additional observations from a re-analysis of the deposited data

How the results depend on the processing

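No paired analysis was possible because each tumor has 1 library. The main limits are the single libraries, the scaling and the trend over GC content and length. Centred on the median expressed gene, 267 genes were higher and 579 lower, with 147 candidate de-repressed genes and 176 lost genes, which turned both balances. With the summed FPKM made equal there were 1440 higher, 180 lower, 417 de-repressed and 79 lost genes. With the trend subtracted 284 were higher and 135 lower. A fold of 1.5 gave 1816 and 894 and a fold of 3 gave 106 and 80. Without the level minimum 1234 genes were higher, and with a minimum of log2 FPKM 5 there were 99 higher and 163 lower, which turned the balance too. Taking as low only genes at −9 left 15 de-repressed and 5 lost genes, a low limit of −1 left 68 and 32, a detected limit of 0 gave 1208 and 652, and of 2 gave 32 and 15. Over their alternatives the correlation of the change with GC content ran from −0.553 to −0.582 and the correlation of the change with transcript length from 0.453 to 0.491. Of 256 list medians under the alternatives 22, in 14 lists, had the other sign. In 11 of these lists the reported median was within 0.5 of 0, and the other 3 were chemokines (−0.60) and fibroblast markers (−0.062) over all members not at −9, and adipocyte markers (0.24) with the trend subtracted. Of the other list medians 7 moved by 0.5 or more, as did 53 of 630 values of named genes, and none of the named genes counted as higher or lower changed direction. EZH1, PHF1 and PHF19, which were not counted, changed sign in 1 alternative each.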

Other observations

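Keratins, the filament proteins of epithelial cells, were looked at as a family after their values were seen. Counts of this and the other families below are to be read against 8.93% higher and 4.42% lower over all genes that could pass. With the trend subtracted these shares were 3.99% and 1.9%. Of 20 keratin genes that could pass 2 were higher, KRT75 and KRT79, and 6 lower, KRT1, KRT10, KRT15, KRT19, KRT23 and KRT77. The median of 24 expressed keratins was −0.33, and 0.17 with the trend subtracted. KRT75, a keratin of the hair follicle, stood at 3.28 (Vehicle), 18.8 (CDK2i) and 35.6 FPKM (EZH2i), a fold of 10.8 (95% interval 9.01 to 13.2). Of 13 S100A genes, calcium-binding proteins, none was higher and 4 were lower: S100A4, S100A7, S100A8 and S100A9. With the trend subtracted 1 S100A gene was lower, and the median of 14 expressed members went from −0.65 to −0.15. Of 17 kinesins 7 were higher and none lower, and 2 of them with the trend subtracted. Among 73 numbered zinc finger genes 4 were higher and 1 lower, both under the shares over all genes, and none in either direction with the trend subtracted. Further large falls outside the lists were SOSTDC1, an inhibitor of BMP and WNT signaling, at 70.2 (Vehicle), 51.2 (CDK2i) and 7.32 FPKM (EZH2i), ARG1, the arginase, at 13.6, 12.1 and 1.30, and VTCN1, an immune checkpoint ligand, at 13.8, 12.2 and 1.86. C6orf15 stood at 13.9, 46.3 and 2.25 FPKM. Further large rises were SEMA7A, a semaphorin, at 1.44, 5.51 and 11.1 FPKM, and AP000304.1, whose annotated transcript of 36 nt held 1 fragment in Vehicle and 13 in EZH2i.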
